A study of Mus musculus with 12 samples.

Results

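The genes described here are a set of 45 cell cycle and DNA replication genes. They were listed by their known roles, and with earlier results of these data known. The set holds 14 genes that act in late G1 and S phase, when DNA is copied. The other 31 act from G2 through mitosis, when chromosomes are separated and the cell divides. Of the 45 genes, 44 were measured in mouse lung by Affymetrix MoGene 1.0ST arrays, among 23410 transcript clusters that carry a gene symbol. A transcript cluster is the array's unit for a gene. All 14 S phase genes and 30 of the 31 mitosis genes had a cluster with their symbol alone, and Ccnb1 had none. Where a gene had more than 1 such cluster, the brighter over the 12 arrays was used. This concerned Pcna, whose 2 clusters gave the same fold change to 2 decimals in both responses, and Top2a, whose dimmer cluster stayed between 3.14 and 3.73 on the log2 scale and was not used. Values are log2 expression as normalised by the authors, and levels are compared between mice for 1 gene, never between genes.

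The mice were of the mixed strain C57/129S, and each of 4 groups held 3 of them with 1 array per mouse. WTC were Fra-1+/+ mice given 30 µL of PBS into the trachea, WTT were Fra-1+/+ mice given 0.075 U of bleomycin in the same volume, and KOC and KOT were the Fra-1-/- mice given PBS and bleomycin. Lungs were taken after 5 days. Fra-1, encoded by Fosl1, is a subunit of the AP-1 transcription factor, and bleomycin is a drug that breaks DNA and is used to injure the lung. By the study's methods both genotypes carried floxed Fra-1 alleles, and Fra-1-/- mice also carried a Meox2 (Sox2)-Cre transgene, which is active in the embryo but not in the extra-embryonic tissues, so that the deletion was not limited to any cell type of the lung. The labels give an age of 2 months, and the methods a somewhat older range.

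The lung's alveolar type 2 markers Sftpc (13.64 to 14.07) and Sftpb (13.45 to 13.73), surfactant genes, were high in all 12 mice. Fosl1 was at 6.37, 6.76 and 6.86 in the WTC mice, 7.81, 8.19 and 8.32 in WTT, 6.68, 6.26 and 6.56 in KOC and 7.33, 7.32 and 7.28 in KOT. Its levels overlapped between KOC and WTC, were higher in every bleomycin-treated mouse than in the PBS-treated mice of its genotype, and were lower in KOT than in WTT without overlap. Whether its probes lie in the deleted part is not given in the sources used here, so the cluster does not check the deletion. The labels call all mice female, but 12 of 12 arrays went against this, with the X-inactivation transcript Xist between 4.47 and 4.94 and the Y-linked Eif2s3y between 8.52 and 8.93. Animal numbers ran from 53 to 81 in Fra-1-/- mice and from 157 to 164 in Fra-1+/+ mice, except for WTC 76. Array medians lay between 7.14 and 7.22.

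A cell that enters S phase switches on genes through E2F transcription factors, among them those for nucleotide supply, for the MCM helicase that opens the DNA and for the replication machinery. Genes for mitosis follow later, under the MuvB complexes with B-Myb and FoxM1, which recognise a short element called the CHR (cell cycle genes homology region), often next to CCAAT boxes bound by NF-Y. Most genes of both sets are low in resting cells, and most cells of a healthy adult lung rest, so dividing cells of any type contribute this RNA in whole lung. After injury by bleomycin, alveolar epithelial cells, fibroblasts, endothelial cells and macrophages are all known to divide.

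The promoters printed here show the elements beside genes with a small p in both responses and, for comparison, beside genes picked for the elements themselves. RefSeq promoters (build GRCm38.p6, 250 bases before to 50 bases after the annotated start) were given for 37 of the 44 measured genes, and not for Mcm4, Ccne2, Ccna2, Aurkb, Kif20a, Tpx2 and Foxm1. Each was searched on both strands for the CHR (TTTGAA or TTCGAA), the CCAAT box (CCAAT) and 2 forms of the E2F site (TTCCCGC or TTGGCGC), and a match is a description of letters, not a bound site. Below are the 120 bases before the start, 5′ to 3′ on the gene's strand, with matches in capitals. For S phase the 3 genes shown by rule, as those with the smallest p in both responses to bleomycin that had an entry, are Ccne1 (chr7:38107491-38107610, minus strand), Rrm1 (chr7:102441575-102441694, plus strand) and Pcna (chr2:132253181-132253300, minus strand), and Mcm6 (chr1:128359706-128359825, minus strand) was added after the matches were seen.
Ccne1: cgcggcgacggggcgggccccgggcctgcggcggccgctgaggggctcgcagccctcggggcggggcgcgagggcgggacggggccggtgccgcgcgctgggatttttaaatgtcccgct
Rrm1: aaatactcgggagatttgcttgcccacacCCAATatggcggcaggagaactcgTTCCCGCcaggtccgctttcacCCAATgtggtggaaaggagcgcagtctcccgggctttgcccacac
Pcna: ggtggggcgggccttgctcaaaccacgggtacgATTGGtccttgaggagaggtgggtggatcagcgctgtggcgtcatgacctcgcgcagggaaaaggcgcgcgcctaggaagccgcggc
Mcm6: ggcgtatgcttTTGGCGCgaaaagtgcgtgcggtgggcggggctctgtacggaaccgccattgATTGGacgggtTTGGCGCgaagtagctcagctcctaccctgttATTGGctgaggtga

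Rrm1 had an E2F site 67 bases before its start between 2 CCAAT boxes, and Mcm6 had 2 E2F sites and 2 CCAAT boxes. Pcna had a CCAAT box alone in this stretch, and Ccne1 none of the letters searched. For mitosis the rule gave Anln (chr9:22389207-22389326, minus strand), Birc5 (chr11:117849117-117849236, plus strand) and Aurka (chr2:172370571-172370690, minus strand), and Cdk1 (chr10:69352913-69353032, minus strand) and Top2a (chr11:99024190-99024309, minus strand) were added after the matches were seen.
Anln: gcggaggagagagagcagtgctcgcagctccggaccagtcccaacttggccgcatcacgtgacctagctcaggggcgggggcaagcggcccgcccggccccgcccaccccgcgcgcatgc
Birc5: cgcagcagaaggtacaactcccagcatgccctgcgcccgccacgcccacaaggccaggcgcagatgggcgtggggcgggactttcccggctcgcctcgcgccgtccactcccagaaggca
Aurka: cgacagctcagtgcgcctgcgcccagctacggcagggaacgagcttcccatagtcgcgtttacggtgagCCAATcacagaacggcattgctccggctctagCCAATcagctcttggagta
Cdk1: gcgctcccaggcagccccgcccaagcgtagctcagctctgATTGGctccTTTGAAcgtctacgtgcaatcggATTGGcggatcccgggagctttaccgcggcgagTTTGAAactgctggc
Top2a: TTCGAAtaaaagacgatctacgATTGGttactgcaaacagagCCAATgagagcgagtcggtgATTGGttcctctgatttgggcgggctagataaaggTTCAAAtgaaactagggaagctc

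Cdk1 had a CHR 15 bases before its start and another 71 bases before it, each with a CCAAT box upstream, and Top2a had a CHR 23 bases before its start and another 120 bases before it, with 3 CCAAT boxes between them. Aurka had 2 CCAAT boxes here and a CHR 33 bases after its start. Anln had CHR letters only after its start, at 22 and 29 bases, and Birc5 had no match. Over the whole window a CHR stood in 21 of 25 mitosis promoters (84%) and in 2 of 12 S phase promoters (16.7%), against 21.7% of the 27025 genes in the table (19.2% of its 32851 promoters). An E2F site stood in 7 of 12 S phase promoters (58.3%) and 4 of 25 mitosis promoters (16%), against 7.79% of genes (6.81% of promoters). CCAAT boxes were about as frequent in both lists, in 9 of 12 (75%) and 19 of 25 (76%), against 41.1% of genes (37.4% of promoters). CHR and CCAAT box occurred together in 18 of 25 mitosis promoters (72%), against 9.65% of genes (7.52% of promoters).

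**Figure D1:**
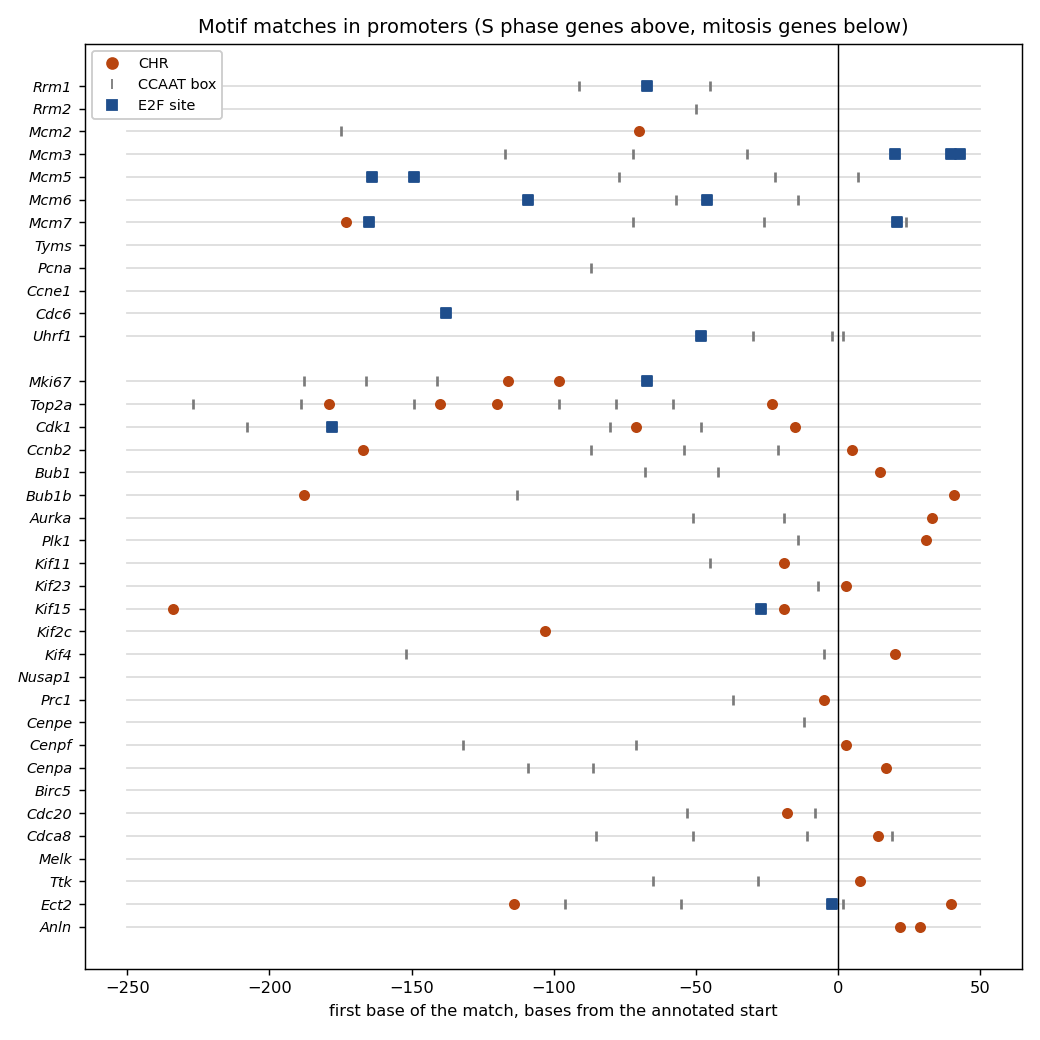
Motif matches in the promoters of the 37 members with an entry (the first entry where a gene has 2), by distance of the first base from the annotated start on the x axis, with 1 line per gene. CHR matches (circles) lie mostly in the mitosis genes below, near the start, and E2F sites (squares) mostly in the S phase genes above.

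The response of Fra-1+/+ lungs to bleomycin was taken first, from WTT against WTC. The members rose together: 27 of 30 mitosis genes and 10 of 14 S phase genes were higher with bleomycin at an adjusted p under 0.05 (limma fit to all 12 arrays, Benjamini-Hochberg over the 23410 clusters), and 0 were lower, by this threshold or by an unadjusted p under 0.05. Over all clusters 10.2% were higher and 11.3% lower. The median log2 fold change was 0.88 over the mitosis genes (1.84-fold, range 0.29 to 1.29) and 0.44 over the S phase genes (1.35-fold, range 0.26 to 0.80), against 0.02 over all clusters. All 44 members lay above 0, as did 53.9% of all clusters. In whole lung, more dividing cells and more of this RNA per cell cannot be told apart. The groups did not overlap, with every WTT mouse above every WTC mouse, for 28 mitosis and 10 S phase genes, where 18.3% of all clusters did the same.

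The counts moved with single mice. Without WTC 157, the lowest control, 4 S phase and 17 mitosis genes passed, without WTC 158 they were 6 and 22, and without WTT 161, the highest treated mouse, 5 and 17. Without WTC 76 they were 12 and 28. Fewer of all clusters were higher in each of these settings, 6.11% without WTC 157, 7.04% without WTC 158, 7.15% without WTT 161 and 8.86% without WTC 76. Without WTC 76 more members passed than with all mice, while fewer of all clusters did. By the local-pooled-error test of the study's methods at an adjusted p under 0.01, 3 S phase and 14 mitosis genes were higher, where 3.46% of all clusters were.

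Among the S phase genes, Ccne1, the cyclin that drives entry into S phase with Cdk2, was at 7.65, 7.30 and 7.49 in WTC mice and at 8.22, 8.40 and 8.09 in WTT. The WTT mice all lay above the WTC mice, and the log2 fold change was 0.76 (SE 0.13, adjusted p = 0.00220). Its relative Ccne2 rose by 0.45 (SE 0.11, adjusted p = 0.0137), from a mean of 6.07 ± 0.07 to 6.52 ± 0.22 (SD, n = 3). The genes of nucleotide supply all passed: Rrm2, the regulated subunit of ribonucleotide reductase, by 0.80 (SE 0.22), Rrm1, its large subunit, by 0.69 (SE 0.12), and Tyms, which makes thymidylate, by 0.54 (SE 0.11). Rrm2 was at 7.58, 6.76 and 6.87 in WTC and 7.68, 8.25 and 7.69 in WTT, so that WTC 76 lay just below the lowest treated mouse. Uhrf1, which carries DNA methylation through replication, rose by 0.61 (SE 0.17, adjusted p = 0.0252), and Pcna, the sliding clamp of the polymerases, by 0.39 (SE 0.07, adjusted p = 0.00328).

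The 6 subunits of the MCM helicase had small fold changes. Mcm2 (0.48, SE 0.14), Mcm3 (0.42, SE 0.11) and Mcm4 (0.36, SE 0.09) passed, with adjusted p of 0.0276, 0.0179 and 0.0130. Mcm5 (0.34, adjusted p = 0.0648), Mcm7 (0.32, adjusted p = 0.116) and Mcm6 (0.26, adjusted p = 0.475) did not. For these 3 genes WTC 76 was above WTT 164: Mcm5 was at 8.48, 7.92 and 8.16 in WTC against 8.50, 8.65 and 8.44 in WTT, and Mcm6 at 7.96, 7.63 and 7.76 against 8.07, 8.29 and 7.76. Cdc6, which loads the helicase, had a fold change of 0.38 that did not pass (SE 0.15, adjusted p = 0.0918).

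Among the mitosis genes, Cdk1, the kinase that starts mitosis, had the largest fold change. It was at 8.62, 7.77 and 8.35 in WTC mice and at 9.31, 9.83 and 9.45 in WTT, with no overlap and a log2 fold change of 1.29 (2.44-fold, SE 0.23, adjusted p = 0.00295). Its partners, the cyclins Ccna2 and Ccnb2, rose by 1.18 (SE 0.29) and 1.01 (SE 0.27). Foxm1, a transcription factor of mitosis genes, rose by 0.99 (SE 0.19, adjusted p = 0.00360). Anln, an actin-binding protein of the cleavage furrow, had the smallest p of all members: it was at 7.09, 6.90 and 7.30 in WTC and 8.08, 8.76 and 8.21 in WTT, and rose by 1.25 (2.38-fold, SE 0.16, adjusted p = 5.09e-04). Ect2, which activates RhoA in cytokinesis, rose by 0.69 (SE 0.18).

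The mitotic kinases covered the whole span of the list. Plk1, needed for spindle poles and mitotic entry, rose by 1.19 (SE 0.26), Aurkb of the chromosomal passenger complex by 0.87 (SE 0.19) and Aurka of the spindle poles by 0.59 (SE 0.12). Melk rose by 0.50 (SE 0.11). The spindle checkpoint kinases were lower in the span, with Bub1b at 0.58 (SE 0.15), Ttk at 0.29 (SE 0.09, adjusted p = 0.0488) and Bub1 at 0.53, which did not pass (SE 0.18, adjusted p = 0.0520).

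The other passenger subunits, Birc5 (survivin) and Cdca8 (borealin), rose by 0.90 (SE 0.15) and 0.94 (SE 0.22). Of the 6 kinesins named Kif, Kif20a rose by 0.94, Kif11 by 0.89, Kif4 and Kif23 by 0.73 and Kif2c by 0.72, and Kif15 at 0.44 did not pass (adjusted p = 0.0962). The spindle proteins Tpx2, Prc1 and Nusap1 rose by 1.07, 0.94 and 0.65. The centromere proteins Cenpe, Cenpf and Cenpa rose by 0.91, 0.44 and 0.44, and Cdc20, which activates the anaphase-promoting complex, by 0.49. All of these except Kif15 passed, at adjusted p between 0.00172 and 0.0436.

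Mki67, the common marker of proliferation, had a fold change of 0.93 that just missed the threshold (SE 0.31, adjusted p = 0.0513). It was at 8.99, 7.70 and 8.12 in WTC and 9.15, 9.55 and 8.89 in WTT. WTC 76 lay above WTT 164, and the other controls lay below all treated mice. Top2a, the topoisomerase that untangles replicated chromosomes, rose by 0.88 (SE 0.24, adjusted p = 0.0218), from 7.84, 6.85 and 7.23 in WTC to 8.09, 8.47 and 8.01 in WTT.

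**Figure D2:**
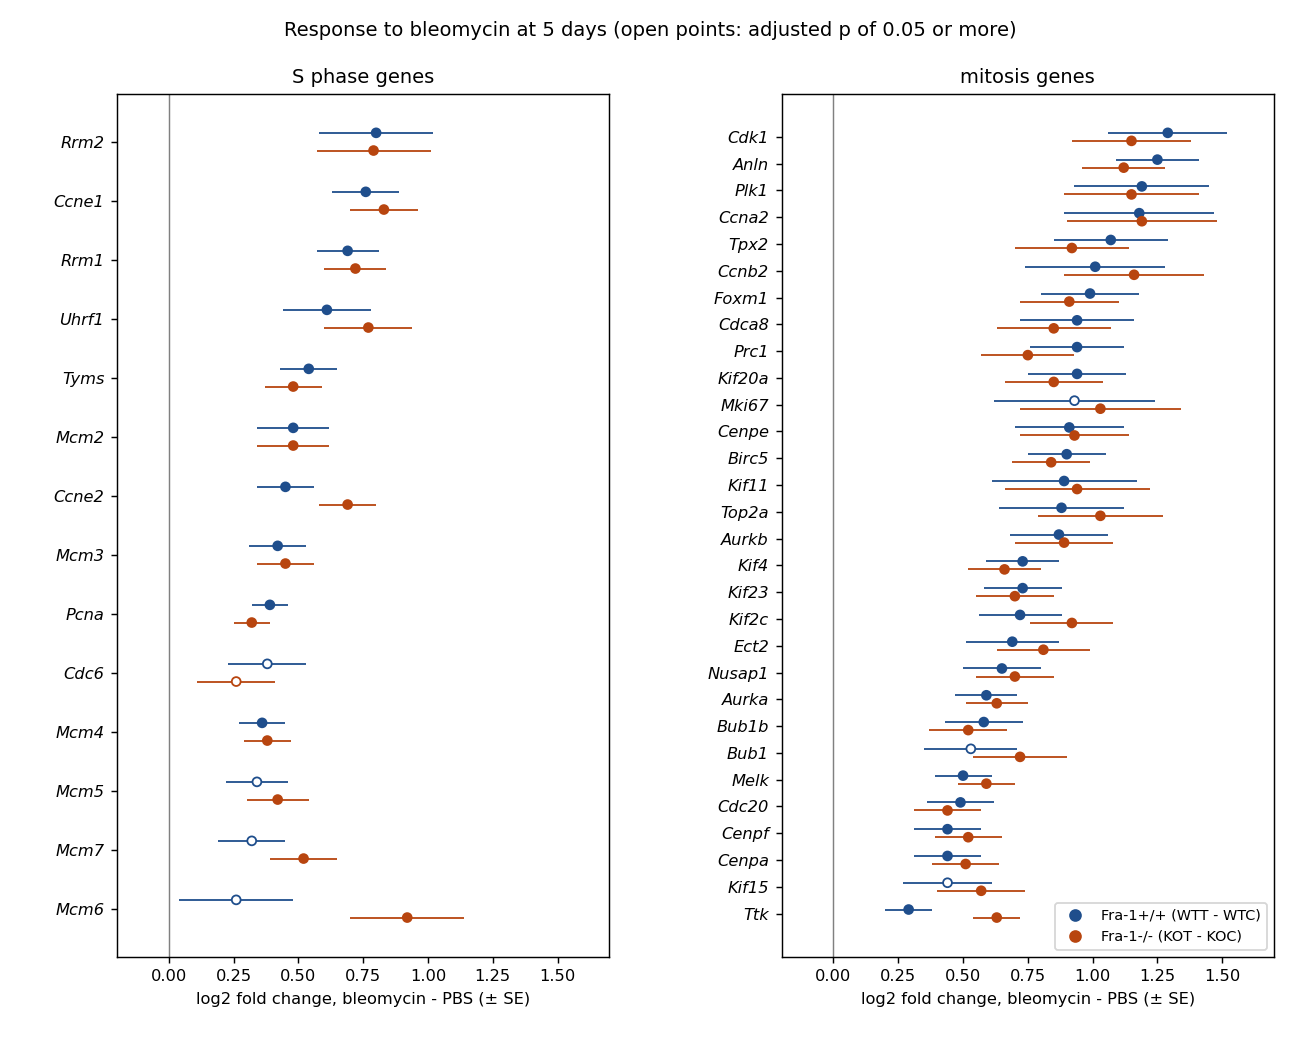
Log2 fold change (x axis) of each member with bleomycin in Fra-1+/+ mice (blue) and Fra-1-/- mice (orange), with bars of 1 SE and open points where the adjusted p was 0.05 or more. All 44 members lie above 0 in both genotypes, the mitosis genes farther than the S phase genes, with Mcm6 and Ttk farthest apart between genotypes.

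The response of Fra-1-/- lungs was taken from KOT against KOC. Here 30 of 30 mitosis genes and 13 of 14 S phase genes were higher with bleomycin, and 0 were lower, where 7.42% of all clusters were higher and 7.98% lower. All 44 lay above 0, as did 53.9% of all clusters. The median log2 fold change was 0.85 for mitosis (1.80-fold, range 0.44 to 1.19) and 0.50 for S phase (1.42-fold, range 0.26 to 0.92). Every KOT mouse lay above every KOC mouse for all 30 mitosis and for 13 S phase genes, where 18.8% of all clusters did so. Cdc6 alone did not pass, with a fold change of 0.26 (adjusted p = 0.286), and was at 6.13, 6.15 and 6.19 in KOC and 6.73, 6.07 and 6.43 in KOT.

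The calls thinned when single mice of these groups were left out, in S phase to 6 without KOC 53, 6 without KOC 55, 8 without KOT 72 and 5 without KOT 81, and in mitosis to 14, 15, 19 and 15. Without KOC 67, the highest control, they were 13 and 29. Of all clusters 4.16%, 4.39%, 4.04% and 3.88% were then higher without KOC 53, KOC 55, KOT 72 and KOT 81, and 6.68% without KOC 67. By the local-pooled-error test at an adjusted p under 0.01, 6 S phase and 25 mitosis genes were higher, where 4.45% of all clusters were.

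Both cyclin E genes passed here too. Ccne1 was at 7.16, 7.57 and 7.60 in KOC and 8.28, 8.21 and 8.35 in KOT, a log2 fold change of 0.83 (SE 0.13, adjusted p = 0.00201). Ccne2 was at 6.09, 5.91 and 6.16 in KOC and 6.83, 6.64 and 6.77 in KOT, a log2 fold change of 0.69 (SE 0.11, adjusted p = 0.00240). Both were clear of overlap. Rrm2 rose by 0.79 (SE 0.22), Uhrf1 by 0.77 (SE 0.17), Rrm1 by 0.72 (SE 0.12), Tyms by 0.48 (SE 0.11) and Pcna by 0.32 (SE 0.07).

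All 6 MCM subunits rose in these mice, Mcm6 by 0.92 (SE 0.22), Mcm7 by 0.52, Mcm2 by 0.48, Mcm3 by 0.45, Mcm5 by 0.42 and Mcm4 by 0.38. Mcm6 had the largest fold change of the S phase list, and also the widest range of that list within KOC: it was at 7.0, 7.06 and 7.87 in KOC and 7.92, 8.41 and 8.36 in KOT. KOC 53 and KOC 55 lay below every other mouse of the 12, and KOC 67 lay with the PBS-treated Fra-1+/+ mice.

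In the mitosis list Ccna2 rose by 1.19 (SE 0.29), Ccnb2 by 1.16 (SE 0.27), Cdk1 by 1.15 (SE 0.23) and Plk1 by 1.15 (SE 0.26). Anln had the smallest p of the members here too, and was at 7.07, 7.06 and 7.19 in KOC and 8.20, 8.15 and 8.33 in KOT, with a log2 fold change of 1.12 (2.17-fold, SE 0.16, adjusted p = 0.00133). Ttk, the checkpoint kinase also called Mps1, was at 5.58, 5.56 and 5.66 in KOC and 6.15, 6.34 and 6.19 in KOT, and rose by 0.63 (SE 0.09, adjusted p = 0.00172). Kif2c, a kinesin that takes microtubules apart, rose by 0.92 (SE 0.16), Birc5 by 0.84 (SE 0.15), Aurka by 0.63 (SE 0.12) and Melk by 0.59 (SE 0.11). Mki67 was at 8.11, 7.98 and 8.90 in KOC and 9.35, 9.29 and 9.46 in KOT and passed, with a log2 fold change of 1.03 (SE 0.31, adjusted p = 0.0424).

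**Figure D3:**
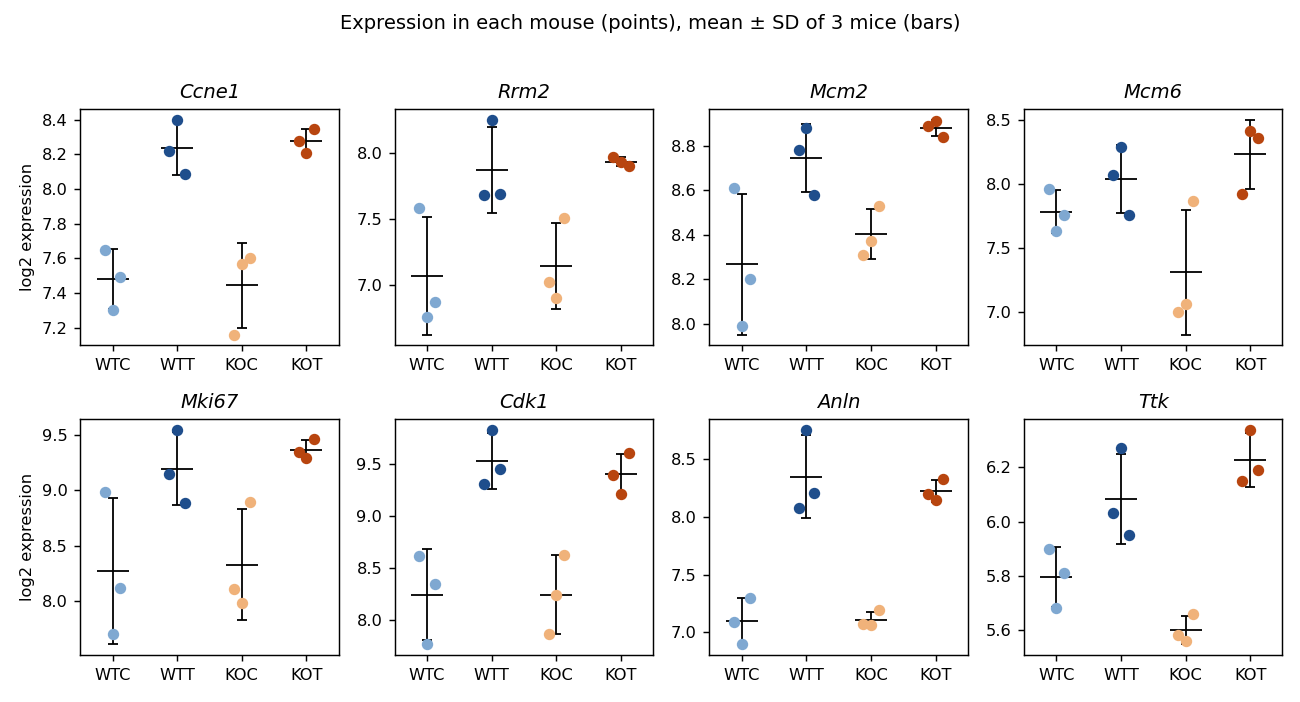
Log2 expression (y axis) of 4 S phase genes (upper row) and 4 mitosis genes (lower row) in each mouse of the 4 groups, with the mean ± SD of 3 mice. The PBS groups each hold 1 mouse well above the others for Mki67 and Rrm2, and the 3 KOT mice lie close together for most genes shown.

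Of the members, 37 passed in both genotypes, 6 passed in Fra-1-/- mice only (Mcm5, Mcm6, Mcm7, Mki67, Bub1 and Kif15) and Cdc6 passed in neither. Passing in 1 genotype and not in the other is not a difference between them, which was tested as the difference between the responses, (KOT - KOC) - (WTT - WTC). None of the 44 members passed (0% of all clusters did), and 1 had an unadjusted p under 0.05, against 5.10% of all clusters. This was Ttk, with a difference of 0.34 (95% confidence interval 0.05 to 0.63, adjusted p = 0.963), with the mean of KOC 0.20 below WTC and that of KOT 0.14 above WTT. For Mcm6 it was 0.66 (interval -0.03 to 1.36, adjusted p = 0.963) and for Ccne2 0.24 (interval -0.11 to 0.58). The next by p were Mcm7 (0.20) and Uhrf1 (0.16) in S phase and Kif2c (0.21), Prc1 (-0.19) and Bub1 (0.19) in mitosis, all with intervals that held 0. For Mki67 it was 0.10, with a wide interval from -0.85 to 1.06, so that a difference of 1 log2 unit lay inside the interval for both Mki67 and Mcm6. For the other 42 members the interval lay within 1 unit of 0 on both sides, and for 15 of the 44 within 0.5. The median differences were 0.03 for S phase and 0.02 for mitosis, and single mice turned their sign: without WTC 76 they were -0.06 and -0.15, and without WTC 157 they were 0.15 and 0.17.

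With PBS alone, KOC against WTC, 0 of 44 members passed (0.0128% of all clusters did, or 3), and 0 had an unadjusted p under 0.05, against 9.82% of all clusters. By the local-pooled-error test 0 members passed, and 1.79% of all clusters did. The median difference was 0.04 for S phase and 0.01 for mitosis, and its sign turned with single mice: for mitosis it was -0.18 without WTC 157 and 0.16 without WTC 76, and for S phase it ran from -0.06 without KOC 67 to 0.11 without WTC 76. Intervals lay within 1 unit of 0 for all 44 members and within 0.5 for 32. These intervals pool the spread of all 4 groups, also that of KOT. The median SD over the mitosis genes was 0.09 in KOT, against 0.33 in WTC and 0.21 in KOC. Intervals from WTC and KOC alone could therefore be wider. The largest difference was in Mcm6, at -0.48 (interval -0.97 to 0.01, adjusted p = 0.520), which was at 7.79 ± 0.17 in WTC and 7.31 ± 0.49 in KOC (SD, n = 3). Ttk, at 5.90, 5.68 and 5.81 in WTC against 5.58, 5.56 and 5.66 in KOC, was the only member whose groups did not overlap (-0.20, interval -0.40 to 0.01, adjusted p = 0.527), and 9.37% of all clusters were lower in this way. Tyms (0.19), Mcm4 (0.14) and Pcna (0.11) in S phase and Kif2c (-0.19), Kif4 (0.15) and Aurka (-0.09) in mitosis followed by p.

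With bleomycin, KOT against WTT, 0 of 44 passed (0.0427% of all clusters, or 10) and 0 had an unadjusted p under 0.05, against 10.6% of all clusters. By the local-pooled-error test 0 members passed, and 0.705% of all clusters did. The S phase genes had a median difference of 0.11 and 13 of the 14 lay above 0, where 45.8% of all clusters did. Cdc6, at -0.15, was the exception. The median was 0.05 without WTT 164 and 0.19 without WTT 161. Ccne2, at 0.22, had the smallest p (SE 0.11, interval -0.02 to 0.47, adjusted p = 0.501), followed by Mcm4 at 0.16 (SE 0.09, interval -0.03 to 0.35, adjusted p = 0.556). Mcm4 was at 8.76, 8.89 and 8.78 in WTT and 8.90, 9.02 and 9.0 in KOT, just without overlap, and 6.92% of all clusters were higher in this way. The mitosis genes had a median difference of 0.02 (-0.07 without WTT 164 and 0.16 without WTT 161), and single genes lay between -0.14 for Prc1 and 0.17 for Mki67 and Top2a, and the smallest p were those of Ttk (0.14), Ect2 (0.16), Bub1 (0.15) and Anln (-0.12). Intervals lay within 1 unit of 0 for all 44 members and within 0.5 for 29.

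**Figure D4:**
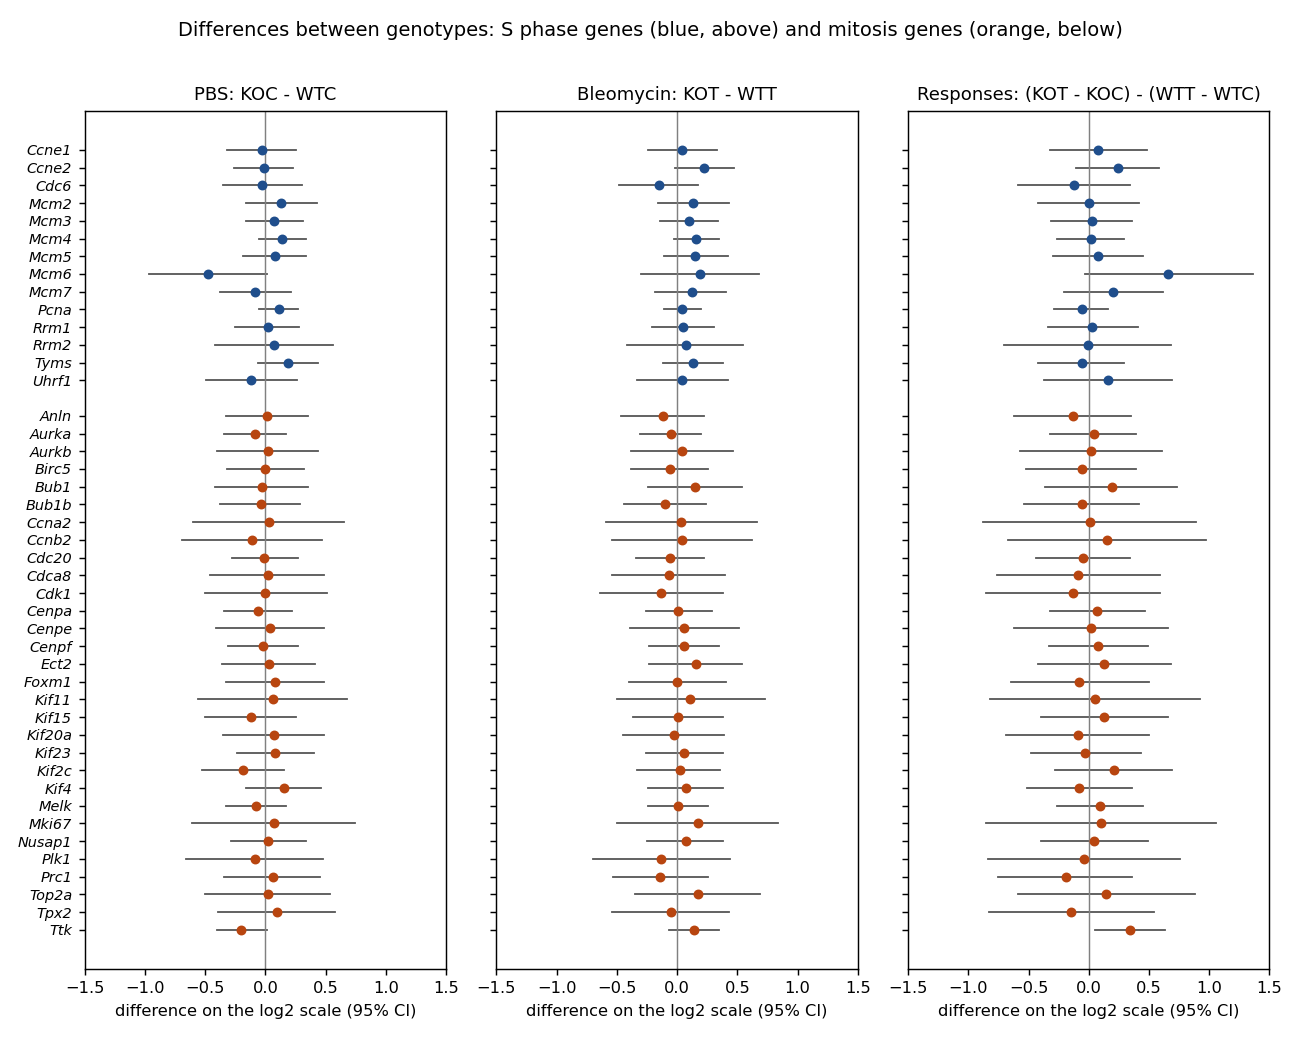
Differences between Fra-1-/- and Fra-1+/+ mice on the log2 scale (x axis), with PBS, with bleomycin and between the responses, for each member with its 95% confidence interval. All intervals hold 0 except that of Ttk for the difference between the responses.

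The members varied together from mouse to mouse. WTC 76 was the highest of the WTC mice for 40 of 44 members and WTC 157 the lowest for 40, WTT 161 was the highest of WTT for 41, and KOC 67 the highest of KOC for all 44. The mean over the 30 mitosis genes was 7.33 in WTC 76, 6.71 in WTC 157 and 7.07 in WTC 158, and it was 7.73, 8.14 and 7.64 in WTT 160, 161 and 164. It was 6.91, 6.89 and 7.30 in KOC 53, 55 and 67, and 7.81, 7.83 and 7.91 in KOT 72, 80 and 81. The mean over the 14 S phase genes had the same order within WTC and WTT and was also highest in KOC 67. The spread was thus wide in 3 groups and narrow in KOT, whose median SD over the mitosis genes was 0.09, against 0.33 in WTC, 0.29 in WTT and 0.21 in KOC. Over all clusters the median SD was 0.11 in WTC, 0.13 in WTT and 0.10 in both KOC and KOT.

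Some markers of other cells moved with these values and others did not, and their part in them was not tested. A summed level is the log2 of a list's linear values added up, and on this scale no marker can be listed at 0. Counts of markers that passed stand beside the 10.2% of all clusters higher and 11.3% lower in Fra-1+/+ mice, and the 7.42% and 7.98% in Fra-1-/- mice. On the summed level of 7 B cell markers, among them Cd79b and Cd79a, WTC 76 (12.79) and KOC 67 (12.73) were also the highest PBS-treated mice, with WTC 157 (11.29) the lowest, and on 9 T cell markers, among them Cd3e and Cd3g, WTC 76 was at 11.79, WTC 157 at 10.57 and KOC 67 at 11.54. After bleomycin this did not hold, since WTT 161, the highest WTT mouse for the members, had the lowest B cell level, 10.43. The B cell markers ranged from 10.43 to 11.16 in WTT and 11.46 to 12.25 in KOT, and with bleomycin Cd79a and Cd79b fell in Fra-1+/+ mice, as 2 of 7, and 0 in Fra-1-/- mice. Among T cell markers Cd2 alone fell, in Fra-1+/+ mice. They ranged from 10.58 to 11.05 in WTT and 11.18 to 11.39 in KOT. The 6 germinal centre and thymocyte markers, of lymphocytes that divide, stayed between 9.85 and 10.22 in all mice, with 0 passing in either response, also at an unadjusted p under 0.05. Of 6 erythroid markers Alas2 and Slc4a1 fell in both genotypes. On the summed level of these 6, WTC 76 (10.42) and KOC 67 (10.37) were each the lowest mouse of their group. The same held for 9 endothelial markers (14.33 and 14.38).

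Most monocyte and macrophage markers rose with the members. Their summed level went from 14.26 to 14.33 in WTC to 14.77 to 15.05 in WTT, and from 14.31 to 14.42 in KOC to 14.73 to 14.99 in KOT, with 10 of 11 higher in Fra-1+/+ and 9 of 11 in Fra-1-/- mice, and Lyz2 lower in both. Markers of the resident alveolar macrophages did not rise together: of 8 measured, Marco rose and Car4, Fabp1, Krt79 and Pparg fell in Fra-1+/+ mice (median -0.31), and Marco and Itgax rose and Fabp1 fell in Fra-1-/- mice (median -0.24). Among fibroblast markers 4 of 10 rose in each genotype (Col1a1, Col1a2, Col3a1 and Fn1), Tcf21 and Postn fell, and 4 did not pass. Endothelial markers fell for 6 and 8 of 9 and alveolar type 2 markers for 6 and 5 of 9. Of 10 neutrophil markers Ngp alone passed, in Fra-1+/+ mice, a share like that of all clusters. Their fold changes had a median of 0.99 in these mice (median SE 0.42) and 0.08 in Fra-1-/- mice, and their summed level was spread over WTT, at 11.66, 12.75 and 13.79 in WTT 160, 161 and 164, with WTT 164, the lowest WTT mouse on the mean of the members, the highest. Airway and alveolar type 1 markers fell for 3 of 8 in each genotype.

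**Figure D5:**
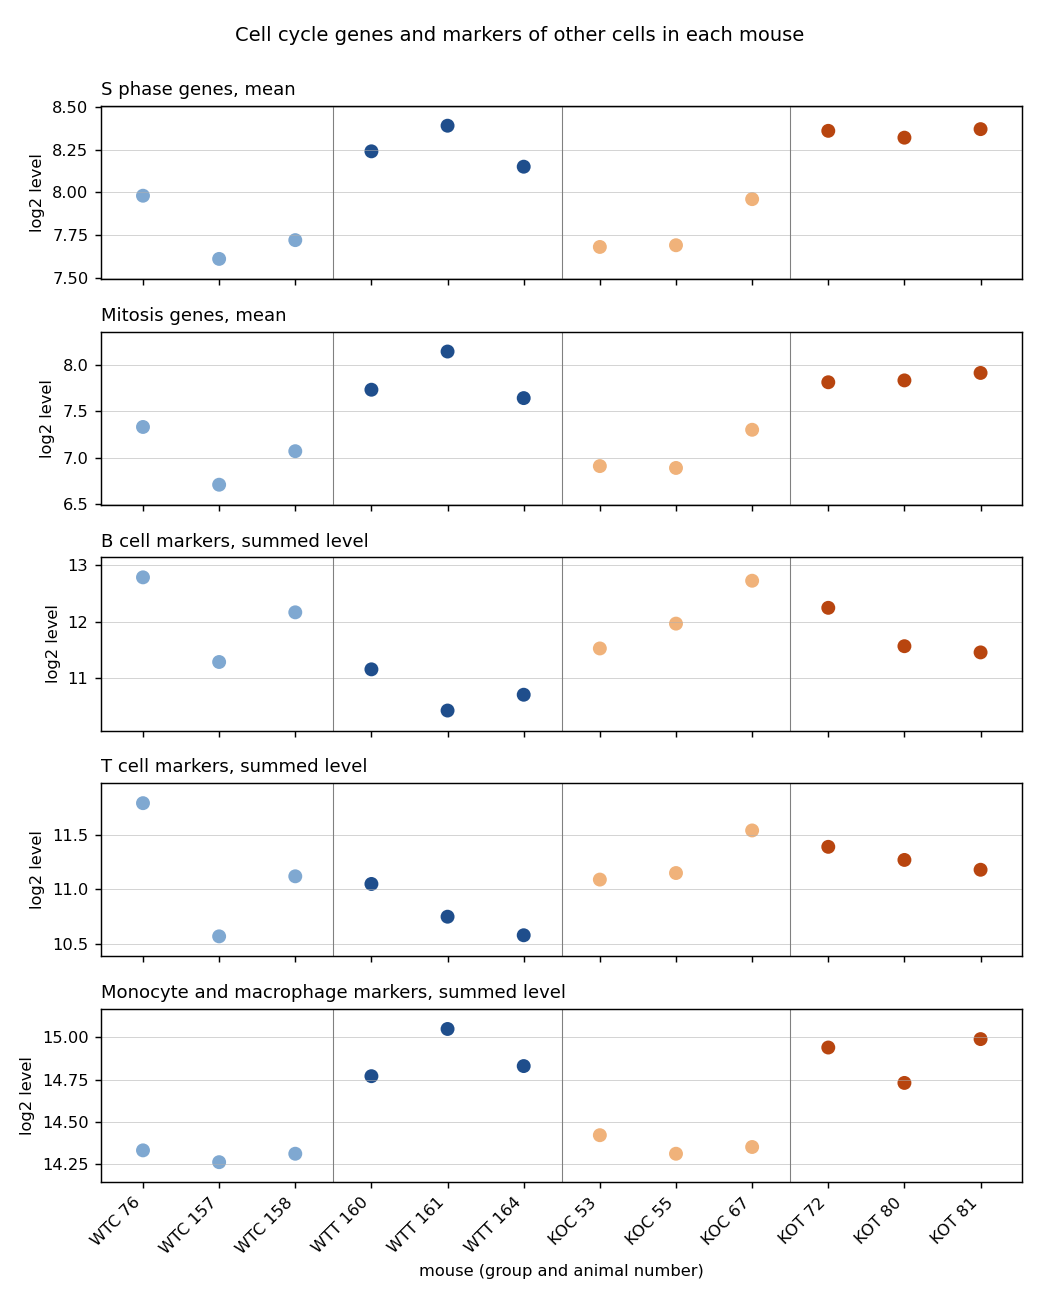
Mean log2 expression of the S phase and mitosis genes and summed level, as log2, of B cell, T cell and monocyte and macrophage markers (y axes) in each of the 12 mice (x axis). WTC 76 and KOC 67 are high among PBS-treated mice for the members and for both lymphocyte lists, and the macrophage markers separate bleomycin from PBS as the members do.

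Other genes of the same processes moved with the members. Counts of genes that passed in these lists, here and below, stand beside shares of all clusters. These were 10.2% higher and 11.3% lower in Fra-1+/+ mice, and 7.42% and 7.98% in Fra-1-/- mice. Of 36 further replication genes 19 rose in Fra-1+/+ and 21 in Fra-1-/- mice and 0 fell, with medians of 0.33 and 0.37. They included Cdt1, which licenses origins with Cdc6 (0.64 and 0.68), Gins1 and Gins2 of the active helicase (0.68 and 0.57, and 0.54 and 0.45) and Pole, the leading strand polymerase (0.69 and 0.75). In Fra-1-/- mice Mcm10, a helicase activator, and Rfc4 of the clamp loader rose by 0.63 and 0.62. Of 61 further mitosis genes, the Fra-1+/+ response held 47 that rose and 1 that fell and the Fra-1-/- response 41 that rose and 0 that fell, with medians of 0.58 and 0.57. The largest were Ckap2, a spindle protein (1.39 and 1.01), in Fra-1+/+ and Gtse1, which restrains p53 in G2 (0.91 and 1.19), in Fra-1-/- mice. Cks1b, a partner of cyclin-dependent kinases, rose by 0.97 and 1.05. The phosphatase Cdc25b fell by 0.44 in Fra-1+/+ mice (adjusted p = 0.0321).

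The regulators upstream of these genes passed in smaller numbers. Among 19 E2F and MuvB regulators there were 5 higher and 3 lower in the Fra-1+/+ response, and 4 higher and 1 lower in that of Fra-1-/- mice, and the lower ones are about the share of all clusters that were lower (11.3% and 7.98%). The repressors E2f8 (0.82 and 1.08) and E2f7 (0.51 and 0.54), themselves E2F targets, and the activator E2f3 (0.60 and 0.52) rose in both, and the E2F partner Tfdp2 fell in both, by 0.84 and 0.64. Lin9 of the MuvB core rose by 0.36 and 0.49. Rbl2, the pocket protein p130 of resting cells, and Lin52 of the MuvB core fell by 0.40 and 0.52 in Fra-1+/+ mice. Of 10 G1 cyclins and kinases 6 and 3 rose, with Myc at 1.60 and 1.11 and the cyclin Ccnd1 at 0.45 and 0.51. Cdc25a (0.39) and Cdk6 (0.35) passed in Fra-1+/+ mice, and Skp2, which marks p27 for degradation, rose by 0.32 and 0.36.

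CDK inhibitors and p53 target genes formed the next list. Among its 11 measured genes 4 were higher and 1 lower in the Fra-1+/+ response, and 3 higher and 1 lower in the other genotype. The lower gene is about the share of all clusters that were lower (11.3% and 7.98%). Sesn2 (1.15 and 1.01), Ccng1 (0.89 and 0.89) and Mdm2 (0.66 and 0.59), known targets of p53, rose, and Cdkn1b, the inhibitor p27, fell by 0.46 and 0.37. Of 19 checkpoint and repair genes 10 rose in each genotype, such as the checkpoint kinase Chek1 (0.47 and 0.68), Brca1 (0.44 and 0.50), Timeless (0.51 and 0.45) and Clspn (0.44 and 0.49) of the replication fork, and the repair genes Brip1 (0.49 and 0.60) and Rad51ap1 (0.38 and 0.59). The anaphase-promoting complex, whose subunits are needed throughout the cycle, had a median of -0.01 in both. Of 16 genes Cdc16 and Ube2s were higher in Fra-1+/+ mice and Anapc13 was lower in both, by 0.43 and 0.38. These counts are about the shares of all clusters (10.2% higher and 11.3% lower in Fra-1+/+ mice, 7.98% lower in Fra-1-/- mice). In the comparisons between genotypes and between responses 0 of the 172 genes of these 7 lists passed, and 11 (KOC against WTC), 9 (KOT against WTT) and 2 (between responses) had an unadjusted p under 0.05. Over all 23410 clusters 3, 10 and 0 passed, and 9.82%, 10.6% and 5.1% had an unadjusted p under 0.05.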

How the data were processed

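Left lungs of 12 mice were hybridised to Affymetrix MoGene 1.0ST v1 arrays, 1 per mouse. Before deposit the authors ran quantile normalisation across the samples and RMA with median polish (Affymetrix Power Tools, version not given in the sources used here). The deposited values are log2 expression of 35556 transcript clusters. Groups were taken from the labels. Genes were named by the platform's annotation, and the 23410 clusters with a symbol were tested.

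In R 4.3.3, limma 3.58.1 and statmod 1.5.0 gave a mean per group from 1 fit of the 12 arrays with 8 residual degrees of freedom, so every SE pools the spread of the 4 groups. A cluster passed at a two-sided Benjamini-Hochberg adjusted p under 0.05, and intervals are at 95%. Each group enters a response and a comparison of genotypes, so these share samples. An exact two-sided test of 3 mice against 3 cannot go below p = 0.1, so calls rest on variances pooled over clusters, and precision is limited by the number of arrays. The local-pooled-error test of the methods was rewritten with 100 intensity bins and a spline of 10 degrees of freedom. The fit was checked on simulated data with known changes. Alternatives were stricter and unpooled tests, array weights, other moderation, scalings and filters, all clusters of a member, and each mouse left out in turn.

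The members and the lists of pathway and marker genes were chosen with earlier results of these data known. Named by rule were, in each response, the 6 members of a list with the smallest p, those that did not pass in 1 genotype, and Mki67, Top2a, Cdk1, Pcna and Mcm2, in the other comparisons the 4 with the smallest p, and the 4 of each pathway list. Members outside the rule are given as well, and other pathway and marker genes where counts are small, chosen after their values were seen. The build of the array annotation is not stated, so clusters have no coordinates and promoters are RefSeq's. Cdkn1a shares its cluster with another symbol and was not used.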

Additional observations from a re-analysis of the deposited data

How the results depend on the processing

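In both responses all 44 members stayed above 0 under every alternative, with medians of 0.35 to 0.52 (S phase) and 0.64 to 1.06 (mitosis) in WTT against WTC and 0.46 to 0.59 and 0.75 to 0.93 in KOT against KOC. At an adjusted p under 0.01 the calls in WTT against WTC fell to 4 S phase and 15 mitosis genes and those in KOT against KOC to 3 and 13. Of all clusters 4.55% and 3.17% were then higher. By the local-pooled-error test, also at an adjusted p under 0.01, they were 3 and 14 in WTT against WTC. In KOT against KOC 6 S phase genes were higher and 5 mitosis calls were lost. Of all clusters 3.46% and 4.45% were higher by this test. A fit to only the 6 arrays of the comparison lost 3 S phase and 7 mitosis calls in WTT against WTC. In KOT against KOC it lost 0 of either list. Of all clusters 6.77% and 7.04% were higher in these fits. Leaving out each mouse gave 4 to 12 S phase and 17 to 29 mitosis genes in WTT against WTC, and 5 to 13 and 14 to 30 in KOT against KOC. Of all clusters 6.11% to 10.5% and 3.88% to 8.17% were then higher. The comparisons between genotypes and between responses gave 0 calls under every alternative that could be run. The local-pooled-error test has no form for the difference between responses and was not run there. Between genotypes and between responses most signs were not stable: under at least 1 alternative the sign turned for 36 of the 44 members in KOC against WTC, 30 in KOT against WTT and 36 in the difference between responses, none of them called, and mostly with 1 mouse left out (35, 29 and 36). Of the members named by rule there, 4 turned: Kif4 in KOC against WTC was -0.07 by the local-pooled-error test, and with single mice left out Bub1 in KOT against WTT ran from -0.01 (without WTT 164) to 0.37, Anln in KOT against WTT from -0.26 to 0.08 (without WTT 161) and Uhrf1 in the difference between responses from -0.02 (without WTC 76) to 0.33. The cause was not tested. Setting all array medians equal changed the calls over all clusters in KOT against KOC from 1736 higher and 1868 lower to 1341 and 2408, and array weights raised them to 3481 and 3637. No paired analysis was possible because the groups share no animal numbers.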
